A study of Rattus norvegicus with 47 samples.

Results

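The data describe rat liver 30 min after an intravenous dose of all-trans-retinoic acid (RA). The arrays were chosen by their titles: 3 arrays of the 30 min group and the 2 vehicle arrays of the same experiment, 5 of the 47 Affymetrix arrays of a study of vitamin A status and RA in rat liver. All rats of this experiment were female Sprague-Dawley rats of 8 weeks, bought at 6 weeks and kept on a stock diet. They were given vehicle (vegetable oil with 5% ethanol) and lost access to food 16 h before the injection. The 30 min rats then received about 25 µg RA bound to albumin, which is 10 µg per 100 g body weight, into the left common iliac vein under light isoflurane, woke up after the incision was stapled, and were killed 30 min after the dose. Rats killed at 60 and 90 min (3 arrays each) were handled in the same way. The vehicle rats are called untreated in their titles, and their treatment notes give vehicle alone and a time of 0 min. The effects of RA, of the surgery and of the time since anaesthesia therefore cannot be told apart in any value set against vehicle. No vehicle array has a time of 30, 60 or 90 min, so contrasts between these times cannot separate them either. Each array held the liver RNA of 1 rat. In liver homogenates, a change in the share of a cell type and a change in RNA per cell cannot be told apart.

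RA acts through nuclear receptors (RARs, paired with RXRs) that sit on DNA at paired short motifs and switch on target genes when RA binds. In liver the best known targets are Cyp26a1, which encodes the enzyme that clears RA, and its relative Cyp26b1. Rarb, Dhrs3 and Lrat, which encode a receptor, a retinal reductase and the enzyme that stores retinol as ester, are further targets. Immediate early genes are a different class: they are transcribed within minutes of a stimulus, without new protein synthesis, by factors such as serum response factor and NF-kappaB that are already in the cell.

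Values are log2 signals relative to the median of their own array. The arrays correlated at 0.882 to 0.918 with each other, 667 to 1566 of 31099 probe sets lay at the array's floor, and no pair held identical values. Hepatocyte markers marked all 5 arrays as liver: Alb, the gene of albumin, had 8.56, 8.31 and 8.56 at 30 min, against 8.13 and 8.55 in vehicle, and 9 such markers summed to 1830 to 2040 array medians (linear signal in multiples of the array's median), against 1600 to 1980. The GAPDH 3' to 5' difference, a measure of RNA integrity, was 0.41 to 0.48 at 30 min, against 0.33 to 0.37 in vehicle, and the actin difference was 1.84 to 1.98, against 1.86 to 1.99.

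One vehicle array stood apart from its label. Xist, the RNA that coats the inactive X chromosome of female cells, had 6.60, 6.52 and 6.13 at 30 min, against -2.04 on vehicle replicate 1 and 6.32 on vehicle replicate 2, and 3 further Xist probe sets showed the same split. Eif2s3y, which is Y-linked, had -3.98 on vehicle replicate 1, within its range of -4.60 to -2.92 on the other 10 arrays of the experiment. Cyp2c12, a cytochrome P450 of female rat liver, had 7.67 there, beside 7.71 to 8.13 on the other 10, and Cyp2c11, its male counterpart, had 1.10, beside 0.44 to 2.09. That liver thus lacked Xist signal while its sex-dependent P450 signals were those of the other arrays. Calls at 30 min are therefore also given without vehicle replicate 1, which leaves 1 vehicle array that is assumed to vary like the other groups.

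Few transcripts passed the test 30 min after RA, and 19 of the 20 that did had risen. In the limma fit on the 11 arrays of the experiment, 20 of 22763 probe sets passed an adjusted p of 0.05 (Benjamini-Hochberg): 19 were higher (0.0835%) and 1 was lower (0.00439%), and 2034 had an unadjusted p under 0.05. They named 18 of 11798 genes (0.153%), 17 higher and 1 lower. Among the called probe sets with a gene name, the largest rises were in Rgs1 (13.3-fold), Noct (11.6-fold), Cxcl1 (11.6-fold), Cxcl2 (8.21-fold) and Fos (6.29-fold). An unnamed probe set had a larger change, 4.18 on the log2 scale. The order depends on how dim signals are treated: with an offset of 0.25 array medians, chosen after the data were seen, the log2 change was 3.37 for Noct, 2.45 for Rgs1 and Cxcl2, 2.27 for Fos and 2.03 for Cxcl1. The only gene called lower was Cep350, 2.09-fold. For all 18 genes the 30 min arrays lay wholly on one side of the vehicle arrays, as they did for 6.99% of all genes in the higher direction and 22.7% in the lower. The 18 genes were selected by the same comparison, so their separation adds no support to the calls. The calls depend on how the variance is modelled: without the mean trend in limma's variance prior only Fos was still called. The median gene had a change of -0.129 on the log2 scale, and the medians of gene lists below are to be read against that shift. Calls in the lists are to be read against 0.153% of all genes. Their counts at an unadjusted p under 0.05 are to be read against 2034 of 22763 probe sets. That background counts probe sets, not genes, and pools both directions, so it is only a rough guide to counts of genes higher or lower.

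**Figure D1:**
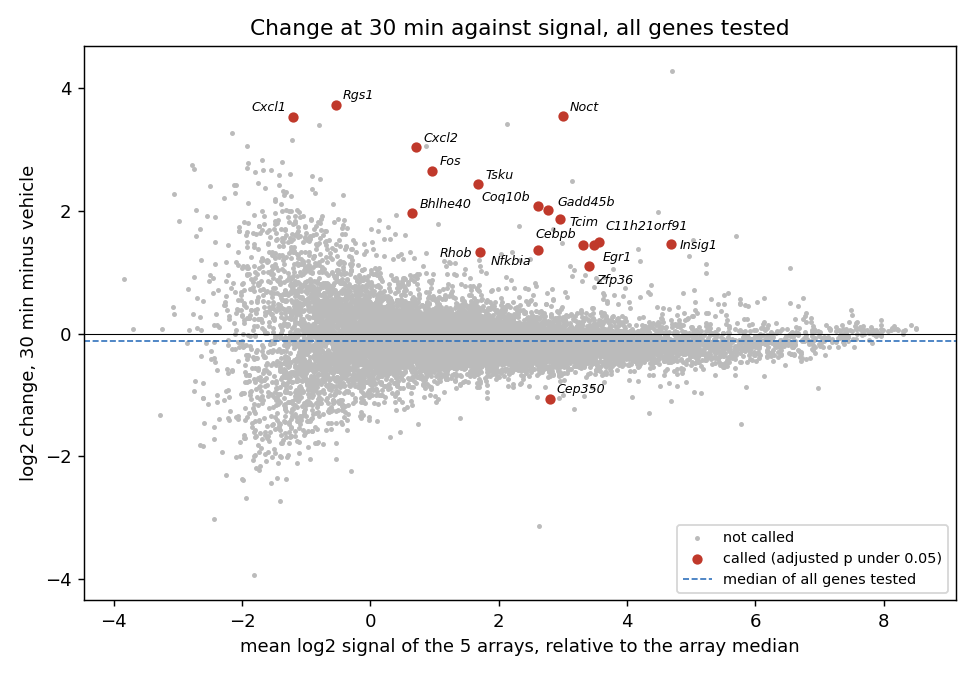
Log2 change, 30 min minus vehicle, of each of the 11798 genes tested (vertical axis) against its mean log2 signal on the 5 arrays (horizontal axis). The 18 called genes are in red, 17 of them above the line of no change, and the dashed line is the median of all genes, at -0.129.

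Only 6 of the 18 genes were called whichever of the 5 arrays was left out: Egr1, Fos, Noct, Insig1, Nfkbia and Cxcl1. Without vehicle replicate 1, 8 of the 18 passed, these 6 with Cxcl2 and Rgs1, and 11 probe sets passed that were not called with both vehicle arrays. The 17 rises were then 0.89 to 4.22 on the log2 scale, and the highest adjusted p among the 18 genes was 0.22. Leaving out 30 min replicate 1 left 9 probe sets, the fewest, and leaving out vehicle replicate 2 gave 36, the most.

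**Figure D2:**
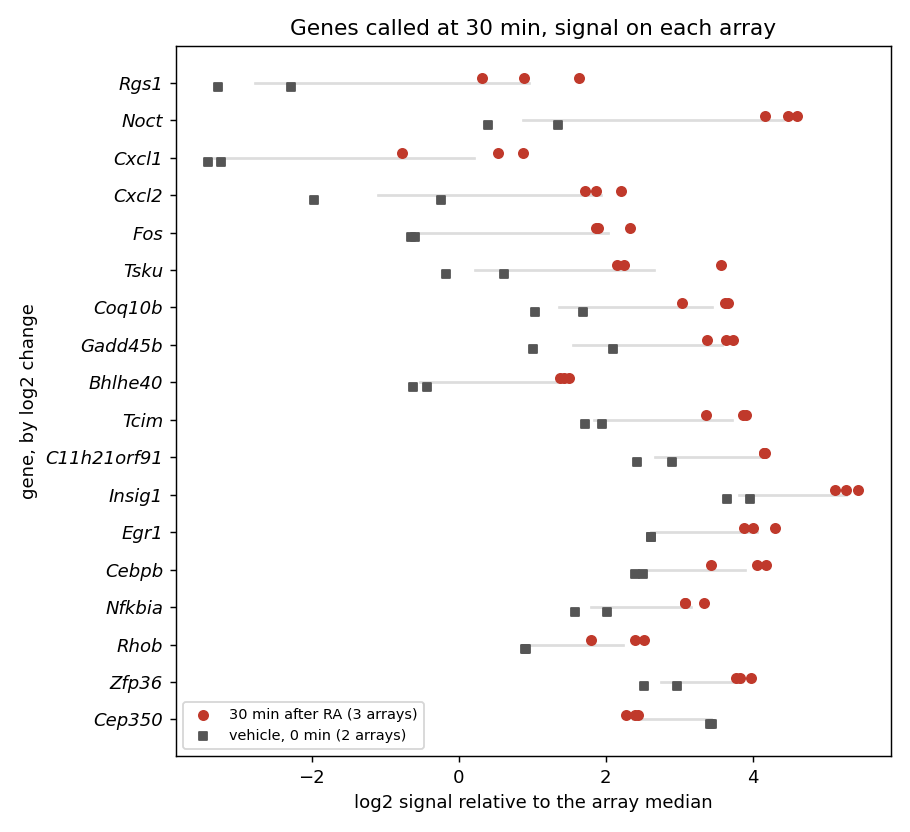
Log2 signal relative to the array median (horizontal axis) of the 18 called genes, ordered by log2 change, on the 3 arrays of the 30 min group (red circles) and the 2 vehicle arrays (grey squares). Grey lines join the group means; in 17 genes every circle lies to the right of both squares, and in Cep350 to their left.

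Immediate early genes gave the most calls of any list: 6 of 61 tested members rose, namely Fos, Egr1, Zfp36, Gadd45b, Cebpb and Rhob, beside 0.153% of all genes. Without vehicle replicate 1, 2 of the 6 passed, Fos and Egr1. At an unadjusted p under 0.05, 25 were higher and 2 lower, and 35 of the 61 lay above both vehicle arrays on all 30 min arrays, beside 6.99% of all genes. The median of the list was 0.57. Fos, a subunit of the transcription factor AP-1, had 1.86, 2.33 and 1.89 at 30 min, against -0.65 and -0.60 in vehicle. The groups lay more than 2 log2 units apart, and the change was 2.65 ± 0.34 (SE; adjusted p = 0.00547). A second, dimmer probe set of Fos had -3.78, -0.23 and -2.63 at 30 min, against -0.26 and -2.97, with a change of -0.60 ± 1.45 (adjusted p = 0.951), and over the mean of both the change was 1.03 (adjusted p = 0.654), so the call rests on the brighter one. Egr1, a zinc finger factor induced by growth factors and injury, had 4.30, 4.00 and 3.88 at 30 min, against 2.61 and 2.62 in vehicle, a change of 1.44 ± 0.16 (adjusted p = 0.00244). Its vehicle arrays were nearly the same, and the lowest 30 min array was above them by more than 1 log2 unit.

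Zfp36 encodes tristetraprolin, which marks AU-rich mRNAs of cytokines and early genes for decay. It had 3.97, 3.83 and 3.77 at 30 min, against 2.52 and 2.97 in vehicle (1.11 ± 0.15, adjusted p = 0.008). Gadd45b, a stress-induced regulator of MAP kinase signalling, had 3.37, 3.63 and 3.73 at 30 min, against 1.01 and 2.10 in vehicle (2.02 ± 0.28, adjusted p = 0.008). The vehicle arrays of Gadd45b differed by over 1 log2 unit, and neither reached the 30 min arrays. Cebpb, a bZIP factor of the hepatic acute phase and of gluconeogenesis, had 4.18, 3.43 and 4.05 at 30 min, against 2.40 and 2.50 in vehicle (1.44 ± 0.23, adjusted p = 0.0215). Rhob, a short-lived GTPase, had 2.39, 1.80 and 2.52 at 30 min, against 0.91 and 0.90 in vehicle (1.33 ± 0.22, adjusted p = 0.0398). These 4 genes lost their call when some single arrays were left out: without vehicle replicate 1 the adjusted p was 0.102 for Zfp36, 0.0735 for Gadd45b, 0.188 for Cebpb and 0.204 for Rhob. The highest value over the 5 omissions was 0.227, for Rhob.

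The promoters of Egr1 and Zfp36 are shown because both hold CArG boxes, the letters read by serum response factor. They are the RefSeq sequences of build GRCr8, 300 bases from 250 before to 50 after the gene start, 5' to 3' on the gene's strand, with CArG boxes in capitals. Egr1 is at chr18:26736828-26737127 on the plus strand, with boxes at positions -105 to -96 and -83 to -74 relative to the start, and Zfp36 at chr1:92799059-92799358 on the minus strand, with 1 box at -32 to -23.
Egr1: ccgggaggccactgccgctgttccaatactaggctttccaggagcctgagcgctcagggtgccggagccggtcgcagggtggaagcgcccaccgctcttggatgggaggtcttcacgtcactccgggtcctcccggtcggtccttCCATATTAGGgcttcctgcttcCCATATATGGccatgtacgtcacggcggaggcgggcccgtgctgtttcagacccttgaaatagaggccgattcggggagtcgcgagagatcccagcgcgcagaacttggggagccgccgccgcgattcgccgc
Zfp36: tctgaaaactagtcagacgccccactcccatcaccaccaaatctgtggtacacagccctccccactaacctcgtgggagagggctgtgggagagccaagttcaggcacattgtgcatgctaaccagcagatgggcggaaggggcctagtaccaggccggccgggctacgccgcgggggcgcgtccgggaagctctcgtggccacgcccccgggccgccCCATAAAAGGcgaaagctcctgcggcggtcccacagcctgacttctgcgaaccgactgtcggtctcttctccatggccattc
Of the 17 genes that rose, 15 had a promoter entry, and 2 of these 15 held a CArG box, beside 1.64% of all 33469 promoters of that length. The motifs were picked after the calls were seen and searched on both strands. The share of all promoters counts every entry, whether or not its gene was tested here, while 1 entry was searched for each named gene. None of the 15 held the cAMP response element TGACGTCA (1.83% of all promoters) or an AP-1 site, TGACTCA or TGAGTCA (4.63%). At these shares, none among 15 promoters is not unusual, so no conclusion is drawn from it.

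Several well-known early genes were higher on all 30 min arrays without passing the test. Jun, the partner of Fos in AP-1, had 3.77, 3.54 and 3.39 at 30 min, against 1.84 and 2.35 in vehicle (1.47 ± 0.42, adjusted p = 0.317). Nr4a1, an orphan nuclear receptor, had 1.57, 1.5 and 2.24 at 30 min, against -0.24 and 0.21 in vehicle (1.79 ± 0.33, adjusted p = 0.0854). Dusp1, a MAP kinase phosphatase, and Myc had changes of 1.26 ± 0.34 (adjusted p = 0.298) and 1.30 ± 0.40 (adjusted p = 0.337). Atf3, a stress-induced repressor, had 1.25 ± 0.74 (adjusted p = 0.671). In these 5 genes the groups did not overlap, but their standard errors were larger than those of Egr1. Dusp1 depended on the vehicle arrays: its change was 0.53 without vehicle replicate 1 (adjusted p = 0.899) and 1.99 without vehicle replicate 2, where it was called (adjusted p = 0.0251). Myc had 0.77 and 1.84 in these omissions and was called in neither. In 3 other members the groups overlapped: Junb had a change of 0.38 ± 0.37, Ier2 of 0.52 ± 0.25 and Ier3 of -0.20 ± 0.30. So they did in Socs3, of the acute phase list (-0.13 ± 0.41), and over these 4 genes the adjusted p was 0.566 to 0.965.

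The NF-kappaB and chemokine list gave 3 called genes of 37 tested, all higher: Nfkbia, Cxcl1 and Cxcl2, beside 0.153% of all genes. Nfkbia and Cxcl1 stayed called whichever of the 5 arrays was left out, and Cxcl2 only when that array was vehicle replicate 1. At an unadjusted p under 0.05, 10 of the 37 were higher and 0 lower, and the median was 0.46. On all 30 min arrays 12 lay above both vehicle arrays, beside 6.99% of all genes. Nfkbia, which encodes the inhibitor IkappaB-alpha and is itself a target of NF-kappaB, had 3.07, 3.08 and 3.34 at 30 min, against 1.58 and 2.02 in vehicle (1.36 ± 0.16, adjusted p = 0.00355). Cxcl1, a chemokine that draws neutrophils, had -0.77, 0.53 and 0.87 at 30 min, against -3.24 and -3.41 in vehicle (3.53 ± 0.44, adjusted p = 0.00547). Its vehicle arrays were far below the array median and above the floor, so the size of its change depends on how dim signals are treated: with an offset of 0.25 array medians, chosen after the data were seen, it was 2.03 (adjusted p = 0.0585). Over 16 alternatives its adjusted p ranged from 0.00155 to 0.325, the highest with the 30 min and vehicle arrays alone. Cxcl2, a related chemokine, had 1.87, 1.72 and 2.20 at 30 min, against -0.24 and -1.97 in vehicle (3.04 ± 0.52, adjusted p = 0.047). The vehicle arrays of Cxcl2 differed more from each other than the 30 min arrays did, and without vehicle replicate 2 the change was 2.17 and the adjusted p 0.309. Without a 30 min array its adjusted p was 0.10 to 0.198.

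The promoters of these 3 genes each hold a kappaB site, in capitals below, and are shown for that reason. In build GRCr8 they are chr6:78597023-78597322 for Nfkbia, chr14:17479272-17479571 for Cxcl1 and chr14:17467206-17467505 for Cxcl2, all on the minus strand. The window of Nfkbia is built on a start inside the RefSeq gene record, which reaches to 78597307, and positions in it are counted from the window's own start.
Nfkbia: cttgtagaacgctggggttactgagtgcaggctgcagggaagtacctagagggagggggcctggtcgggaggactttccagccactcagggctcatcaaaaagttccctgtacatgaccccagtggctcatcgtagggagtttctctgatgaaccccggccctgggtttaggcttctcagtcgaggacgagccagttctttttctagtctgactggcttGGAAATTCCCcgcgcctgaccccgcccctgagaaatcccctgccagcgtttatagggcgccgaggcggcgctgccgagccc
Cxcl1: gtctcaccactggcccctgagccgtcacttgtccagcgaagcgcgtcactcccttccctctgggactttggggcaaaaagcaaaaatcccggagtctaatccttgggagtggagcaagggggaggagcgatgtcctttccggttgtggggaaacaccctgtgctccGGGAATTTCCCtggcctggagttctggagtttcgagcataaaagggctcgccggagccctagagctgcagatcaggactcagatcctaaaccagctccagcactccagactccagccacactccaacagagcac
Cxcl2: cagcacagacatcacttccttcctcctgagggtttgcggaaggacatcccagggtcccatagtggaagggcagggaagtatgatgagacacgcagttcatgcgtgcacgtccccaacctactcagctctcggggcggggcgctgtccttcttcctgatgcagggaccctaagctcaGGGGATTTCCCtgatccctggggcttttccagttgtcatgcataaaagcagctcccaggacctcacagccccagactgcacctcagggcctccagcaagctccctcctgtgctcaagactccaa
A kappaB site was found in 3 of the 15 promoters, these 3, and in 4.18% of all promoter entries, including those of genes not tested here. Among named genes that were not called, Rara, Nr4a1 and Socs3 also held a match. In Cxcl1 and Cxcl2 the capitals cover 2 matches that overlap by all but 1 base, so each promoter has 1 place. The site of Nfkbia is at -31 to -22, those of Cxcl1 start at -84 and -83, and those of Cxcl2 at -74 and -73.

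Rgs1, a brake on G protein signalling known from leukocytes, had 0.89, 0.32 and 1.64 at 30 min, against -2.29 and -3.27 in vehicle (3.73 ± 0.53, adjusted p = 0.008). Its vehicle signal was dim, and with the offset of 0.25 array medians the change was 2.45 (adjusted p = 0.0311). It remained called without vehicle replicate 1 and had an adjusted p of up to 0.0753 when another array was left out. Other members of the NF-kappaB list that were higher on all 30 min arrays did not pass: Tnfaip3, a feedback inhibitor of NF-kappaB, had 2.13, 2.42 and 2.89, against 1.62 and 1.5 (0.92 ± 0.23, adjusted p = 0.298), and Nfkbiz, an inducible nuclear IkappaB protein, had 2.13, 2.07 and 2.63, against 1.55 and 1.56 (0.72 ± 0.21, adjusted p = 0.317). The interferon list had 0 of 38 called and a median of 0.26, with 2 members higher and 0 lower at an unadjusted p under 0.05. The acute phase list had 1 of 30 called, Cebpb, and a median of 0.06.

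No leukocyte marker was called at 30 min. Among 5 tested neutrophil markers 0 passed, also at an unadjusted p under 0.05. At that p the macrophage list had C1qc and Clec4f higher, and the T and NK cell list had Lck higher. The cholangiocyte list had Cdh1 and Slc4a2 lower. All 9 neutrophil markers on the array, tested or not, summed to 5.06 to 6.39 array medians at 30 min, against 6.22 to 6.32 in vehicle. The 5 tested ones had a median change of -0.18. S100a9, a major neutrophil protein gene, had -0.70, -0.06 and -0.89 at 30 min, against -0.65 and -0.08 in vehicle. The summed signal of 11 Kupffer cell and macrophage markers was 126 to 165, against 109 to 168. That of 18 T and NK cell markers, 15 of them tested, was 15.5 to 19.9, against 14.9 to 15.3. The 12 endothelial markers summed to 93.0 to 97.7, against 106 to 108. Of these 12, 6 lay below both vehicle arrays on all 30 min arrays, beside 22.7% of all genes. The 8 cholangiocyte markers, 7 of them tested, summed to 27.8 to 29.1, against 33.5 to 36. No marker of these lists was called or at the floor on all 5 arrays, and their part in the results was not tested.

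Noct and Bhlhe40 rose at 30 min, and no other gene of the clock list was called. Noct, which encodes nocturnin, a rhythmic phosphatase tied to lipid handling in liver, had 4.60, 4.16 and 4.48 at 30 min, against 0.39 and 1.35 in vehicle (3.54 ± 0.38, adjusted p = 0.00244). It had the lowest p of all genes, and all its 30 min arrays were nearly 3 log2 units or more above the higher vehicle array. Bhlhe40, a repressor that feeds back on the clock, had 1.5, 1.37 and 1.43 at 30 min, against -0.44 and -0.62 in vehicle (1.96 ± 0.27, adjusted p = 0.008, and 0.0523 without vehicle replicate 1). Per1, a clock gene that also answers to glucocorticoids and cAMP, had 1.31, 1.27 and 1.62 at 30 min, against 0.08 and 0.09 in vehicle, and narrowly missed the threshold (1.32 ± 0.23, adjusted p = 0.0556). Noct is not on the clock list, of whose 19 tested genes 1 was called, Bhlhe40, with 5 higher and 1 lower at an unadjusted p under 0.05.

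Insig1, which holds the SREBP escort protein in the endoplasmic reticulum and so restrains sterol synthesis, had 5.27, 5.12 and 5.43 at 30 min, against 3.65 and 3.96 in vehicle (1.47 ± 0.17, adjusted p = 0.00355). It was the only called gene of the 21 tested on the cholesterol list, whose median was -0.17 and in which 3 members, Acat2, Nsdhl and Mvk, were lower at an unadjusted p under 0.05. None of 27 lipogenesis genes was called, and their median was -0.20.

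Tsku, which encodes the secreted proteoglycan tsukushi, had 3.56, 2.24 and 2.15 at 30 min, against -0.18 and 0.61 in vehicle (2.44 ± 0.35, adjusted p = 0.00808). Coq10b, a mitochondrial coenzyme Q-binding protein, had 3.62, 3.04 and 3.66 at 30 min, against 1.69 and 1.04 in vehicle (2.08 ± 0.36, adjusted p = 0.049). Tcim, the transcriptional and immune response regulator, had 3.87, 3.36 and 3.90 at 30 min, against 1.72 and 1.95 in vehicle (1.87 ± 0.26, adjusted p = 0.008). No 30 min array of these genes reached down to a vehicle array. C11h21orf91, an uncharacterised open reading frame, had 4.15, 4.15 and 4.16 at 30 min, against 2.43 and 2.90 in vehicle (1.49 ± 0.23, adjusted p = 0.017). A second probe set of it was not called (1.37 ± 0.27, adjusted p = 0.108). Without vehicle replicate 1, the adjusted p was 0.155 for Tsku, 0.0896 for Coq10b, 0.10 for Tcim and 0.22 for C11h21orf91, so none of these 4 was then called. Coq10b was called in none of the 5 omissions. The other 2 called probe sets, with changes of 4.18 ± 0.55 and 1.78 ± 0.25, have no gene name here.

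The glucocorticoid response list had 1 call and a median above that of all genes. The called member, of 25 tested, was Nfkbia, which is also on the NF-kappaB list, and 13 were higher and 0 lower at an unadjusted p under 0.05. On all 30 min arrays 12 lay above both vehicle arrays, beside 6.99% of all genes, and the median was 0.58. Of the 13 higher members, Errfi1, Dusp1, Gadd45g and Cebpd are also on the immediate early list, so the values of these lists are not independent. Tsc22d3, the glucocorticoid-induced leucine zipper, had 3.86, 3.99 and 3.86 at 30 min, against 2.97 and 3.11 in vehicle (0.86 ± 0.24, adjusted p = 0.298). Tat, the tyrosine aminotransferase gene, had 5.68, 5.59 and 5.62 at 30 min, against 4.24 and 5.05 in vehicle (0.99 ± 0.30, adjusted p = 0.337). Of 29 genes of gluconeogenesis and cAMP signalling none was called, while 8 were higher and 1 lower at an unadjusted p under 0.05. Irs2, an insulin receptor substrate, had 3.40, 3.85 and 3.51 at 30 min, against 2.58 and 2.52 in vehicle (1.03 ± 0.21, adjusted p = 0.127). Pck1, the key gluconeogenic enzyme, differed by 0.01 ± 0.13, and Igfbp1, an insulin-suppressed secreted protein, was at 7.67, 7.82 and 7.43, against 6.74 and 7.77 (0.39 ± 0.40, adjusted p = 0.838). Tsc22d3, Tat and Irs2 were picked for the text after their values were seen.

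**Figure D3:**
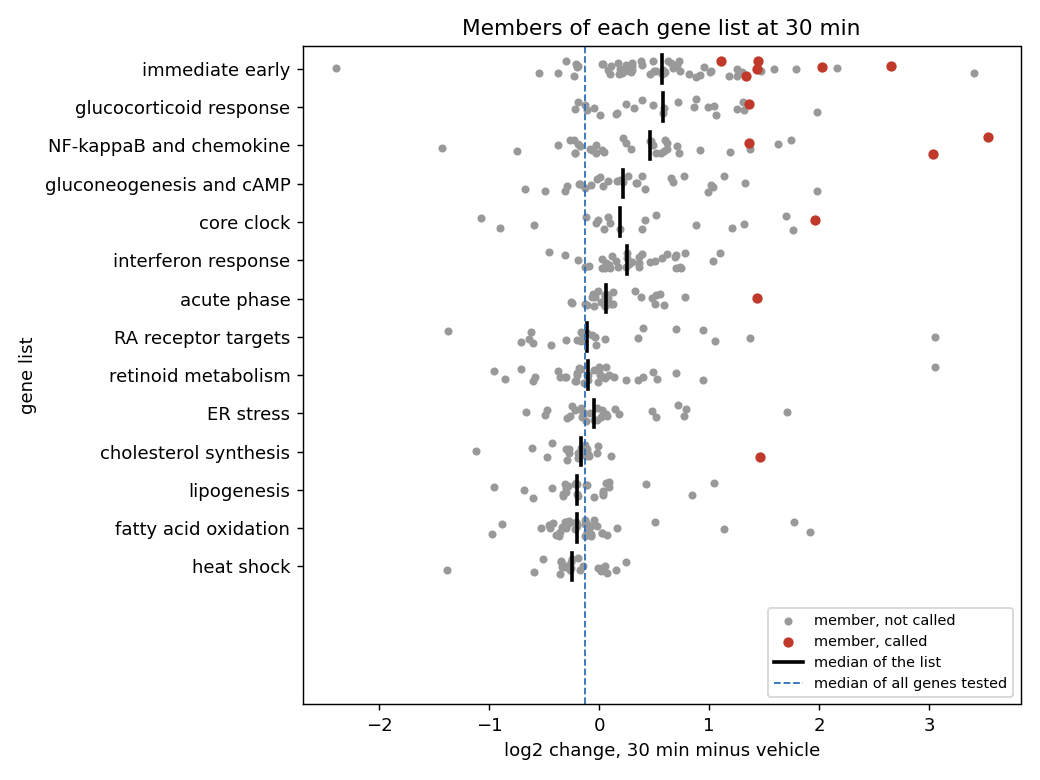
Log2 change, 30 min minus vehicle, of each tested member of 14 gene lists. Called members are red, black bars are list medians, and the dashed line is the median of all genes at -0.129; the immediate early, glucocorticoid and NF-kappaB lists have the 3 highest medians, 0.57, 0.58 and 0.46.

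Genes known to answer to RA receptors gave no call at 30 min in the main fit. Of 23 tested RA receptor targets 0 passed, 3 were higher and 3 lower at an unadjusted p under 0.05, and the median was -0.11, near that of all genes. Of 37 retinoid metabolism genes none was called either, with 3 higher and 4 lower at that unadjusted p and a median of -0.10. Cyp26a1 was the exception in size: it had 2.31, 2.47 and 1.47 at 30 min, against 0.30 and -2.24 in vehicle. The groups did not overlap, but the vehicle arrays were over 2 log2 units apart, and the change of 3.05 ± 0.56 (8.30-fold) missed the threshold (adjusted p = 0.0693). Cyp26a1 was called with array weights (adjusted p = 0.0383) and with the offset of 0.25 array medians (adjusted p = 0.0424). Among the settings where it was not called were quantile normalization (adjusted p = 0.0601), a replicate block (0.0977) and the 5 arrays alone (0.141). Its adjusted p ranged from 0.00738, without vehicle replicate 1 (change 4.32), to 0.497, without the mean trend in the variance, and the change was 1.79 without vehicle replicate 2 (adjusted p = 0.311). At 60 and 90 min Cyp26a1 was called against the same vehicle arrays, with changes of 5.43 ± 0.56 (adjusted p = 0.000817) and 5.61 ± 0.56 (adjusted p = 0.000149).

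The Cyp26a1 promoter is shown because it holds a direct repeat of AGGTCA or AGTTCA spaced by 5 bases, the classical RA response element, in capitals below. In build GRCr8 it is chr1:244883572-244883871 on the plus strand, and the repeat, read on the opposite strand, spans positions -92 to -76.
Cyp26a1: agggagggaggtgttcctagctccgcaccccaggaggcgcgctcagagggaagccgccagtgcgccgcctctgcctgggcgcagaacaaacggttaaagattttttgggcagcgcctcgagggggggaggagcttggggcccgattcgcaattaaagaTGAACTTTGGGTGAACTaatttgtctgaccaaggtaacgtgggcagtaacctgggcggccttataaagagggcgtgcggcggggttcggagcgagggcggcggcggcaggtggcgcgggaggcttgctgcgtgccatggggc
Only 10 of 33469 promoters (0.0299%) held this repeat, and none of the 15 promoters of the genes that rose did. A spacing of 2 was found in 0.0508% of all promoters and likewise in none of the 15. With motifs this rare, none among 15 promoters was nearly certain beforehand. The search therefore cannot show whether the genes that rose lack RA response elements.

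Cyp26b1 had 0.65, 1.10 and 0.69 at 30 min, against 0.32 and -0.11 in vehicle, a change of 0.70 ± 0.23 (adjusted p = 0.378). The 30 min arrays lay above both vehicle arrays, and the difference was small beside those at later times. Rarb had 3.35, 3.23 and 2.92, against 3.42 and 3.32 (-0.20 ± 0.18, adjusted p = 0.799), and Dhrs3 had 3.81, 3.52 and 3.70, against 3.76 and 3.82 (-0.11 ± 0.15, adjusted p = 0.887, and 0.04 after quantile normalization). Lrat had 2.07, 2.10 and 1.68, against 1.61 and 1.58 (0.36 ± 0.18, adjusted p = 0.594). Cyp2c22, a P450 of liver that can oxidise RA, had 6.23, 5.67 and 5.95, against 5.54 and 5.38 (0.49 ± 0.16, adjusted p = 0.365). Rara, the main RA receptor gene, had a change of -0.30 ± 0.24 (adjusted p = 0.765), and Cyp3a9 one of -0.20 ± 0.53 (adjusted p = 0.955). Nr0b2, which encodes the repressor SHP and was picked after its values were seen, had 4.02, 2.75 and 2.73 at 30 min, against 1.85 and 1.74 in vehicle (1.37 ± 0.33, adjusted p = 0.265).

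The single gene called lower was Cep350, which encodes a centrosomal protein. It had 2.44, 2.27 and 2.40 at 30 min, against 3.42 and 3.44 in vehicle (-1.06 ± 0.15, adjusted p = 0.008, and 0.0937 without vehicle replicate 1). Its second, dimmer probe set did not pass the detection filter and had -1.41, -1.90 and -1.15 at 30 min, against -2.34 and -1.90, which is not the same direction, and the mean of both probe sets changed by -0.22 (adjusted p = 0.899). The next 11 genes by unadjusted p in the lower direction had adjusted p of 0.108 to 0.268. Among them Mocs2, a subunit of molybdopterin synthase, had 3.98, 3.97 and 4.80, against 5.32 and 5.37 (-1.09 ± 0.21). Chac2, which degrades glutathione, had -0.71 ± 0.14, Dtymk, the thymidylate kinase, -0.81 ± 0.17, Ndufb6, a complex I subunit, -0.57 ± 0.12, and Lmbrd1, a lysosomal cobalamin transporter, -0.65 ± 0.14. Pnkd (-0.87 ± 0.19), Msrb1 (-0.53 ± 0.11), Cyb5b (-0.62 ± 0.14), Etv3 (-1.03 ± 0.24), Rab19 (-2.74 ± 0.64) and Rsrp1 (-0.50 ± 0.12) completed the set. In all 12 genes the 30 min arrays of the probe set used were below both vehicle arrays, which held for 22.7% of all genes. The 12 were picked by p in this direction, so their separation adds no support. Second probe sets of Chac2, Cyb5b and Etv3 overlapped with vehicle. Those of Dtymk, Pnkd, Lmbrd1 and Rsrp1 lay below both vehicle arrays on all 30 min arrays.

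The heat shock, endoplasmic reticulum stress and MAP kinase feedback lists had 0 calls. Of 24 heat shock genes 0 were called, 0 were higher and 2 lower at an unadjusted p under 0.05, and the median was -0.25, with 11 members below both vehicle arrays, beside 22.7% of all genes. Of 29 endoplasmic reticulum stress genes 0 were called, with 4 higher and 5 lower at that p, and of 24 genes of MAP kinase feedback 0 were called, with 4 higher and 1 lower. The hypoxia list had 1 call of 25, Bhlhe40, which also stood on the clock list. Among metabolic lists, 39 genes of fatty acid oxidation (3 higher and 8 lower at that p, median -0.20), 26 of bile acid metabolism (2 and 2) and 35 of xenobiotic metabolism (1 and 3) had 0 calls.

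Direct contrasts between RA groups, which use no vehicle array, called 6 of the 19 probe sets that rose at 30 min, 3 lower and 3 higher later on, and the other 13 in neither contrast. Between 30 and 60 min 14 of 22763 probe sets passed: 4 rose (0.0176%) and 10 fell (0.0439%), while 1731 had an unadjusted p under 0.05. Between 30 and 90 min 57 passed: 37 rose (0.163%) and 20 fell (0.0879%), while 1777 had an unadjusted p under 0.05. Of the 19 probe sets that rose at 30 min, 2 were called lower and 1 higher at 60 min than at 30, and 2 lower and 3 higher at 90 min than at 30. These contrasts share the 30 min arrays with the comparison against vehicle. Time since RA and time since surgery are the same in each rat, so these contrasts cannot tell them apart.

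Fos and Egr1 had their highest values at 30 min. Fos had -0.05, -0.09 and -0.58 at 60 min and -1.17, -1.02 and -1.32 at 90 min, so that all later arrays were below the 30 min arrays and those at 90 min below vehicle as well. Relative to 30 min it was lower at 60 min (-2.27 ± 0.30, adjusted p = 0.00729) and at 90 min (-3.20 ± 0.30, adjusted p = 0.000184). Egr1 had 3.09, 3.00 and 2.70 at 60 min (-1.13 ± 0.14 against 30 min, adjusted p = 0.00501) and 3.64, 3.56 and 3.70 at 90 min, where it was called higher than vehicle (1.02 ± 0.16, adjusted p = 0.00788). C11h21orf91 was lower at 90 min than at 30 (-1.41 ± 0.20, adjusted p = 0.00739), with 2.51, 2.79 and 2.94. Nr4a1, not called at 30 min against vehicle, was also lower at 90 min than at 30 (-2.10 ± 0.30, adjusted p = 0.00668). Noct had 2.96, 4.74 and 4.01 at 60 min and 2.98, 2.92 and 2.82 at 90 min. Its difference between 30 and 90 min was not called (-1.50 ± 0.34, adjusted p = 0.107). Slc25a25 and Irs2, picked after their values were seen, were lower at 60 min than at 30 (-2.25 ± 0.23, adjusted p = 0.00109, and -1.68 ± 0.19, adjusted p = 0.00165), as was Igfbp1 (-2.65 ± 0.35, adjusted p = 0.00729).

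Cxcl1, Nfkbia and Tsku were higher later than at 30 min. Cxcl1 had 3.91, 2.46 and 2.59 at 60 min and 4.34, 4.48 and 4.67 at 90 min, higher than at 30 min by 2.78 ± 0.40 (adjusted p = 0.0128) and 4.29 ± 0.40 (adjusted p = 0.000184). Nfkbia differed little between 30 and 60 min (0.03 ± 0.14) and was higher at 90 min (0.97 ± 0.14, adjusted p = 0.00883), with 4.14, 4.17 and 4.10. Tsku, with 4.46, 4.10 and 4.57 at 90 min, was higher than at 30 min by 1.73 ± 0.31 (adjusted p = 0.0303). The change of Cxcl2 between 30 and 90 min was -0.60 ± 0.46 (adjusted p = 0.817). Tnfaip3 was higher at 90 min than at 30 by 2.20 ± 0.21 (adjusted p = 0.000184) and S100a9 by 2.48 ± 0.33 (adjusted p = 0.00378), both picked after their values were seen. The median change of the neutrophil markers against vehicle was 1.08 at 60 min and 1.86 at 90 min, against -0.18 at 30 min, and their part in the later values was not tested.

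Several retinoid genes that were not called at 30 min rose later. Cyp26b1 had 3.23, 2.65 and 2.72 at 60 min and 3.37, 3.52 and 3.86 at 90 min, higher than at 30 min by 2.06 ± 0.21 (adjusted p = 0.00109) and 2.77 ± 0.21 (adjusted p = 4.55e-05). Rarb was higher at 90 min than at 30 by 1.65 ± 0.16 (adjusted p = 0.000184), with 5.15, 4.47 and 4.83, and at 60 min its difference was 0.60 ± 0.16 (adjusted p = 0.265). Cyp2c22 was higher at 90 min by 1.32 ± 0.14 (adjusted p = 0.000487). Cyp26a1 had 3.81, 4.57 and 5.01 at 60 min and 5.07, 4.07 and 4.79 at 90 min, above all 30 min arrays, with differences from 30 min of 2.38 ± 0.50 (adjusted p = 0.14) and 2.56 ± 0.50 (adjusted p = 0.0536). Dhrs3 was near its 30 min level at 90 min (0.36 ± 0.14, adjusted p = 0.504).

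**Figure D4:**
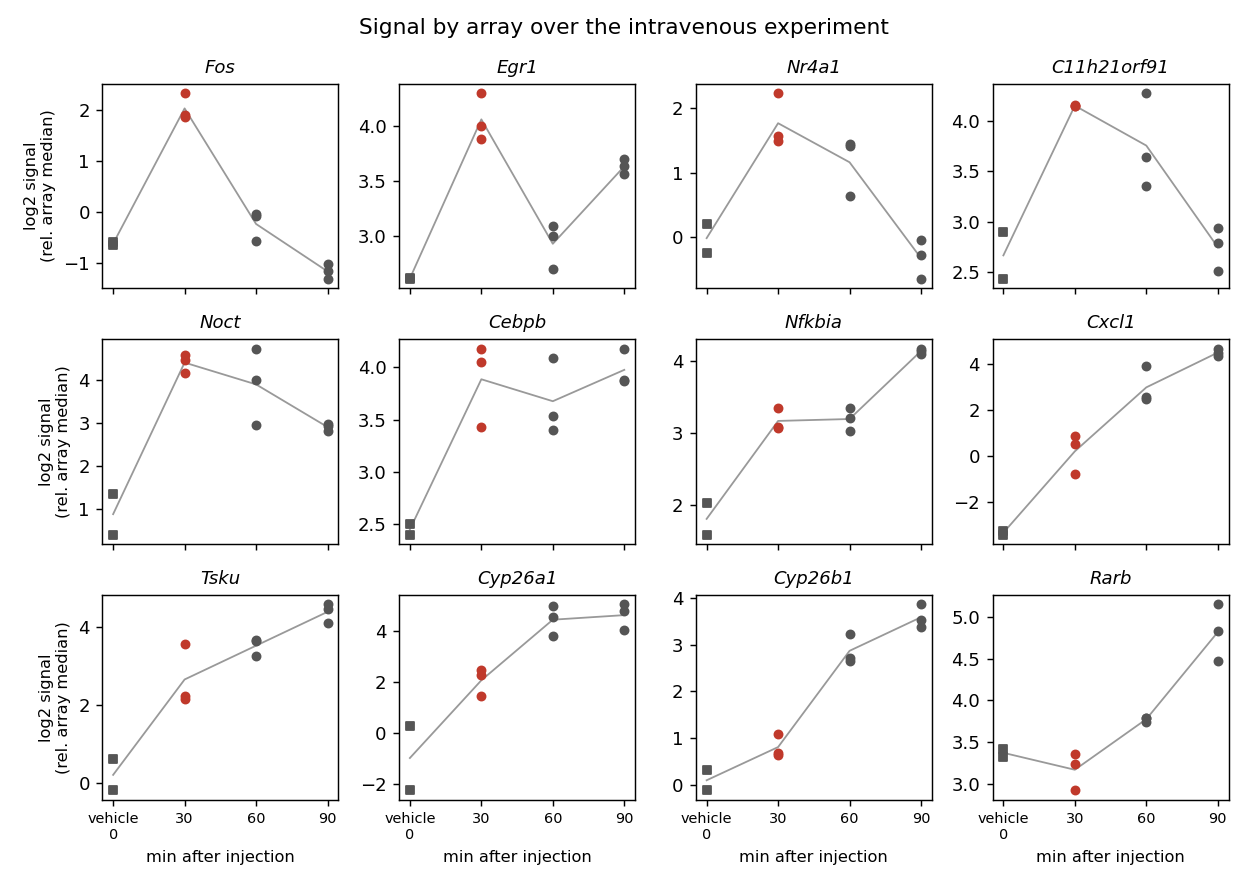
Log2 signal relative to the array median (vertical axes, 1 panel per gene) on each array at 0 min (vehicle, squares) and 30, 60 and 90 min after RA (circles, 30 min in red), with a line through the group means. Fos, Egr1, Nr4a1, C11h21orf91 and Noct have their highest means at 30 min. Cebpb, Nfkbia, Cxcl1, Tsku, Cyp26a1, Cyp26b1 and Rarb have theirs at 90 min, and Rarb leaves its vehicle level after 30 min.

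The early genes were also set beside a separate experiment on vitamin A-deficient female rats of the same strain and age, killed 3 h after about 100 µg RA (3 arrays) or at 0 h after vehicle (3 arrays). There 14 of 11728 genes were called (0.119%). All 18 genes called at 30 min were tested there and 0 were called. On all 3 h arrays 4 of them (Bhlhe40, C11h21orf91, Noct and Tsku) lay above every vehicle array, as did 5.2% of all genes. Tsku came closest to a call, with a change of 4.69 ± 1.00 (adjusted p = 0.0579). Its values were 4.19, 3.77 and 4.64 at 3 h, against -4.57, 2.31 and 0.81 in vehicle, and without the lowest vehicle array the change was 2.64 (adjusted p = 0.675). Leaving out each of the 6 arrays in turn, an alternative added after the data were seen, gave adjusted p from 0.00135 to 0.675. Fos had 0.65 ± 1.44, Egr1 0.43 ± 0.51 and Cxcl1 -0.42 ± 0.89 there. Cyp26a1 was called, with 6.30 ± 0.94 (adjusted p = 0.0022), as were Rarb (1.78 ± 0.29, adjusted p = 0.00323) and Dhrs3 (1.59 ± 0.25, adjusted p = 0.0024). The 2 experiments differed in vitamin A status, route, dose and time. The surgery and the 16 h without food are described here for the intravenous rats only. The values therefore stand side by side, and their difference was not tested.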

How the data were processed

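Liver RNA of individual rats was hybridised to single-colour Affymetrix rat arrays. The values deposited by the authors are log2 signals with each array's median at 0. GCOS is named in the submitters' processing notes, further steps are not given in the sources used here, and base 2 was inferred from the range, so no further log was taken. Of 31099 probe sets, 57 controls were left out, and 20832 carry 1 gene symbol, 436 several and 9831 none in the platform annotation. A gene was represented by its brightest probe set. Testing took in the 22763 probe sets whose signal exceeded the array's percentile 40 on 2 or more of the 11 arrays of the experiment. Group means were fitted with limma 3.58.1 in R 4.3.3 (eBayes with trend, 7 residual and 7.29 prior degrees of freedom). Every adjusted p is Benjamini-Hochberg over all probe sets tested, with calls made below 0.05. Errors are SE of the fit, with 3 arrays in each RA group and 2 in vehicle. The number of arrays limits the precision.

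Named genes were the 12 largest rises and 12 largest falls (called first, the rest by lowest p), a set list of retinoid and early genes, called members of the gene lists and called genes with a called change of opposite sign between 30 min and a later time. Btg2 and Hspa1b of that set had no probe set named for them here. Genes, gene lists and markers were chosen with earlier results of these data known. Lists share genes and are described by counts and medians only. Alternatives were quantile normalization, other filters, no variance trend, array weights, a replicate block, the 5 arrays alone, an offset, floor values left out, the mean over a gene's probe sets, a fold minimum of 1.5 and each array left out. Promoter sequences are RefSeq's, build GRCr8. The arrays' files name no genome build, and coordinates are printed for these promoters only.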

Additional observations from a re-analysis of the deposited data

Results flagged for a closer look

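The contrasts between RA groups tested a difference between time points directly (limma, adjusted over all probe sets), and 14 such differences among the named genes passed. From 30 to 60 min, Cxcl1 (2.78, adjusted p = 0.0128) and Cyp26b1 (2.06, adjusted p = 0.00109) were higher at 60 min, and Fos (-2.27, adjusted p = 0.00729), Egr1 (-1.13, adjusted p = 0.00501) and Igfbp1 (-2.65, adjusted p = 0.00729) were lower. From 30 to 90 min, Cxcl1 (4.29, adjusted p = 0.000184), Cyp26b1 (2.77, adjusted p = 4.55e-05), Rarb (1.65, adjusted p = 0.000184), Cyp2c22 (1.32, adjusted p = 0.000487), Tsku (1.73, adjusted p = 0.0303) and Nfkbia (0.97, adjusted p = 0.00883) were higher at 90 min. Fos (-3.20, adjusted p = 0.000184), Nr4a1 (-2.10, adjusted p = 0.00668) and C11h21orf91 (-1.41, adjusted p = 0.00739) were lower at 90 min. Igfbp1 at 60 min had 5.86, 4.23 and 4.87, below every 30 min and vehicle array, and at 90 min 6.63, 7.58 and 7.5. In each of the other differences the later arrays and the 30 min arrays did not overlap.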

How the results depend on the processing

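The count of 20 probe sets at 30 min changed with the variance model, with the arrays fitted and with single arrays. Without the mean trend in eBayes 1 probe set was called (Fos), and 1 and 8 in the 60 and 90 min contrasts, against 14 and 57. With the 30 min and vehicle arrays alone 38 were called, 16 of them among the 20. Quantile normalization gave 29 and array weights 30, each with all 20. The 2 settings chosen after the data were seen, the offset and leaving out floor values, gave 22 and 20. Leaving out 1 array gave 9 to 36 at 30 min, 8 (without 30 min replicate 2) to 18 from 30 to 60 min, 32 (without the same array) to 52 from 30 to 90 min, and 4 (without vehicle replicate 1) to 40 (without vehicle replicate 2) at 3 h, where 22 were called in full, 34 after quantile normalization and 0 without the trend, against 945 at an unadjusted p under 0.05. Of the named genes, 9 values changed sign: Dhrs3 (0.04) and Pck1 (-0.01) after quantile normalization, Cyp3a9 with array weights (0.00), and, with 1 array left out, Cyp3a9 (-0.92 to 0.21), Pck1 (-0.12 to 0.13) and Igfbp1 (-0.13 to 0.90).

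Over 16 alternatives the highest adjusted p of the called genes was 0.0877 for Bhlhe40 and 0.0979 for Egr1 and Noct, and 0.899 for Cep350.

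Replicate numbers gave no sign of pairing in the correlations: over 15 same-numbered pairs the correlation of deviations was -0.0312 to 0.0244, with 0 above 0.1. A replicate block gave 21 probe sets at 30 min, 17 of them among the 20. It gave 26 from 30 to 60 min and 82 from 30 to 90 min, against 14 and 57 in the main fit.

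Limits were the 2 vehicle arrays, one of which lacked Xist signal, their time of 0 min, and dim signals (a median array signal was 17.1 to 28.3 times the floor).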

Other observations

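Ugt2b and Serpinb9b, chosen after their values were seen, had signals that differed by over 6 log2 units between rats of 1 group, and other genes were not searched for this. Ugt2b, which names a glucuronosyltransferase, had -0.54, -1.93 and 6.59 at 30 min, against 6.52 and 2.51 in vehicle. At 60 min it had -1.18, -1.24 and 6.62, and at 90 min 6.77, 6.29 and 7.18. A second Ugt2b probe set had -2.42, -3.92 and 1.5 at 30 min, against 2.08 and -1.54 in vehicle. Serpinb9b, a serine protease inhibitor, had 3.38, 3.60 and 3.53 at 30 min, against -3.19 and 3.36 in vehicle, with 3.70, 4.05 and 0.42 at 60 min and 3.54, -2.88 and 3.89 at 90 min. The low Serpinb9b value in vehicle was on replicate 1, the array without Xist signal. On that array the median deviation of 448 X-linked probe sets from their mean over the 11 arrays was 0.039 above that of 15854 autosomal ones, within the range of -0.038 to 0.053 on the other 10 arrays. The cause of these values was not tested.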
